A study of Homo sapiens with 6 samples.

Results

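MHC class I antigen presentation was followed through 9 genes, chosen by symbol among the 27685 genes of the deposited count table: the heavy chain genes HLA-B, HLA-C, HLA-E and HLA-F, the light chain gene B2M, the peptide transporter genes TAP1 and TAP2, the tapasin gene TAPBP and the transactivator gene NLRC5. All 9 were found, and 7 of them lie on chromosome 6. The samples are Caco-2, an established human colorectal cancer line whose cells take on features of absorptive enterocytes. One group, the vector control, was mock-transfected with pcDNA3 and is labelled wild type. The other carried hFABP1as, a construct antisense to FABP1 (a cytosolic fatty acid carrier), and is labelled as a knockdown. Both groups were grown in the same serum-containing medium, with no interferon or other agent named in the labels, and polyA RNA of each was sequenced in 3 libraries. The labels do not give the number of transfected lines or clones, so a difference between lines and an effect of the construct cannot be told apart. The labels name no separate cultures, and the p-values cover the variation among these 6 libraries alone, which may be technical.

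A class I molecule is a polymorphic heavy chain bound to beta-2-microglobulin and a short peptide, shown at the cell surface to cytotoxic T cells and natural killer cells. Proteasomes cut cytosolic proteins into peptides, the TAP transporter carries these into the endoplasmic reticulum, and tapasin, calreticulin and PDIA3 hold an empty class I molecule at the transporter until a peptide fits. NLRC5 enters the nucleus and is recruited, by the RFX complex and its partners, to a conserved promoter module of class I genes, and interferon-gamma induces most of the pathway, in part through IRF1. Colorectal tumour cells often carry lesions in this pathway.

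Total counts ran from 40351394 to 57979037 per library. FABP1, the targeted gene, stood at 134, 147 and 122 CPM (read counts divided by effective library size) in the libraries labelled FABP1 antisense, against 138, 102 and 121 CPM in the vector control libraries. The reads counted for the gene were thus not lower where a knockdown is labelled: the groups overlapped and it did not pass (log2 fold change 0.16, 95% interval -0.10 to 0.42, adjusted p = 0.268, quasi-likelihood F test of edgeR, adjusted by Benjamini-Hochberg). The strand setting of the counting is not given, so these counts cannot tell the FABP1 transcript from RNA of the antisense construct. Every direction below is therefore that of the libraries labelled FABP1 antisense, or antisense-labelled libraries, relative to the vector control, whatever their FABP1 level. Libraries are named by the numbers 2, 3 and 4 of the column headers. Of 12 intestinal epithelial markers, all were tested, and their summed level was 14560 to 17900 CPM in the vector control and 16440 to 19360 CPM in the other group, most of it the keratins KRT8 and KRT18. Single identity markers differed more: LGALS4, an intestinal galectin, was at 0.367 to 0.625 against 12.0 to 13.3 CPM, and KRT20, a keratin of differentiated epithelium, at 0.489 to 0.660 against 4.57 to 5.80 CPM. CDH17, the intestinal cadherin, was at 296 to 338 against 779 to 814 CPM, and CDX2, an intestinal transcription factor, at 70.9 to 81.1 against 152 to 177 CPM. Other markers of the list went the other way: of the 12, 7 rose and 2 fell. Those that fell were KRT19, at 1187 to 1591 against 862 to 1056 CPM, and VIL1, at 479 to 544 against 421 to 460 CPM. The part of these shifts in the members' values was not tested. Of 14 leukocyte markers, 6 were tested, of which 2 rose, 1 fell and 3 did not pass. PTPRC, MS4A1, NKG7 and CD53 were among the 5 with 0 counts in all 6 libraries, where 3 counts over a group correspond to 0.0212 and 0.0211 CPM. This floor covers counting error only.

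The promoter sequences of the members show the elements through which the pathway is known to be controlled together, and are given because members that carry them moved in opposite directions here. RefSeq entries (GRCh38.p14, not the build of the counts) matched 7 of the 9 members: HLA-B, HLA-C, HLA-F, B2M, TAP1, TAP2 and TAPBP. Only bases upstream of the annotated start were searched (250 bases), on both strands. The gamma-activated site TTCNNNGAA was searched too, and its 1 match among the members' windows lay in a second TAP1 entry that is not shown, 189 bases before that entry's start. Capitals mark 4 other motifs, merged where they overlap: the kappaB consensus of NF-kappaB, the interferon regulatory factor core AANNGAAA, the X2 box core TGACG and the Y box core ATTGG, of which the reverse complement reads CCAAT.
HLA-B (chr6:31357229-31357359, minus strand): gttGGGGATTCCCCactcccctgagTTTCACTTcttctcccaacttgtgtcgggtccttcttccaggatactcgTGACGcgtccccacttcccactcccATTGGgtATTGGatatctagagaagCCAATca
HLA-C (chr6:31272142-31272272, minus strand): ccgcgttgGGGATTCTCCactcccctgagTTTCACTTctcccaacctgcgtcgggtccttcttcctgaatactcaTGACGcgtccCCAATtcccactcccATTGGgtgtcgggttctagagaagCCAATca
B2M (chr15:44711367-44711477, plus strand): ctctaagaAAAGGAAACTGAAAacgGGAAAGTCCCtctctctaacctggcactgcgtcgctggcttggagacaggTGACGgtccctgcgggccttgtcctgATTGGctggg
TAP1 (chr6:32853764-32853844, minus strand): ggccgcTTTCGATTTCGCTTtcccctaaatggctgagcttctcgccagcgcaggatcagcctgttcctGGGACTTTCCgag
Over 35116 promoter entries of the same length, AANNGAAA occurred in 20.3%, TGACG in 21.2%, ATTGG in 32.0%, the kappaB consensus in 5.21% and TTCNNNGAA in 6.57%, so single matches are common. TGACG followed by ATTGG on the gene's strand, 20 to 30 bases on from start to start, occurred in 77 entries, or 0.219%. That spacing was chosen after seeing the HLA-B sequence. HLA-B and HLA-C carried the pair 25 bases apart and B2M 26 bases apart. In HLA-B and B2M the stretch between the cores holds no further marked motif, whereas in HLA-C a CCAAT lies within it. The pair was not found in the windows of HLA-F, TAP1, TAP2 and TAPBP. TAP1 and TAP2 each had 2 AANNGAAA matches in the upstream window, as did TAPBP and B2M.

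The members did not move together. B2M rose 2.19-fold, the HLA-B, HLA-C and HLA-E heavy chains fell to between 0.675 and 0.810 of their vector control level, TAP1 fell to 0.780, and NLRC5 and HLA-F rose from a few counts. In all, 3 of 9 members rose, 4 fell and 2 did not pass at an adjusted p under 0.05, with a median log2 fold change of -0.20. The number that fell was 1 without vector control library 2, vector control library 4 or antisense-labelled library 4. Of all 14640 tested genes, 27.7% were higher and 27.3% lower (55.0% in either direction), with a median of 0.0082, and whether the members differ from this background was not tested. HLA-F and NLRC5 passed the filter on low counts only through the antisense-labelled libraries, so that their difference was a condition of being tested. Among the 7 members that passed it in both groups, 1 rose, 4 fell and 2 did not pass. The groups did not overlap in any of the 9 members, against 62.7% of all tested genes (31.7% higher and 31.0% lower).

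**Figure D1:**
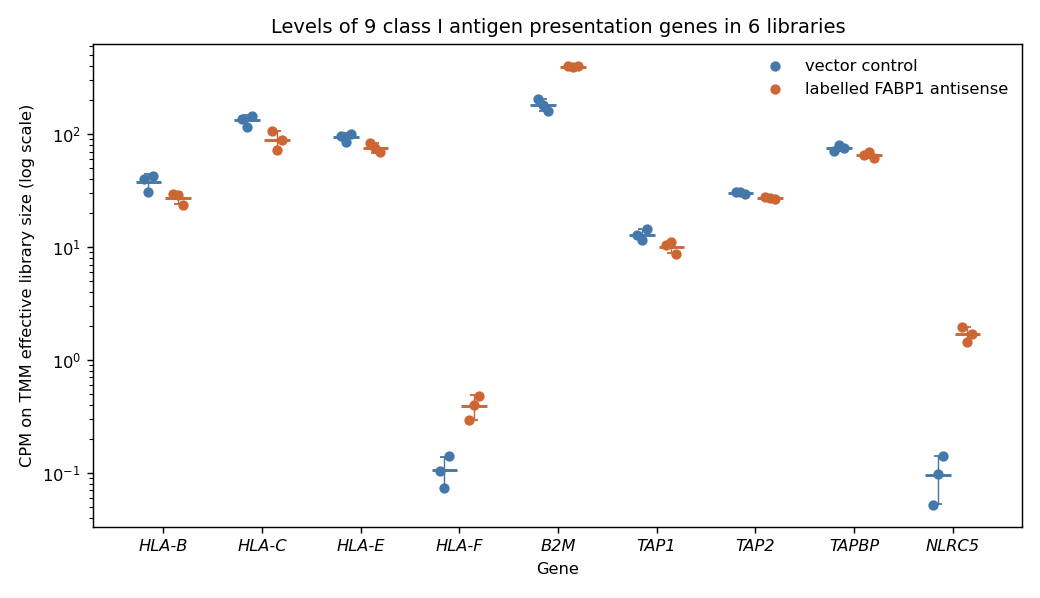
Level of each of the 9 genes in every library, in CPM on a log scale (points), with the mean (bar) and SD (whiskers) of the 3 libraries of each group. B2M lies at 160 to 203 CPM in the vector control and 392 to 401 CPM in the antisense-labelled libraries, NLRC5 and HLA-F lie far below the other members, and the remaining 6 genes are slightly lower in the antisense-labelled libraries.

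Of the 4 heavy chain genes, HLA-C had the highest CPM and the most negative fold change. HLA-C, a classical heavy chain that presents peptide and is also a main ligand of killer immunoglobulin-like receptors, stood at 137, 116 and 144 CPM in the vector control and at 107, 73.0 and 88.9 CPM in the antisense-labelled libraries. The highest antisense-labelled library lay below the lowest control library, and library 3 was the lowest of its group. This gave a log2 fold change of -0.57 (SE 0.14, 95% interval -0.88 to -0.26, adjusted p = 0.00726, edgeR). This call held in 6 of 6 fits that left out 1 library, at -0.71 to -0.44.

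HLA-B, the most polymorphic classical heavy chain, was at 39.9, 30.8 and 42.9 CPM in the vector control and 29.7, 28.9 and 23.7 CPM in the antisense-labelled libraries. Control library 3 and antisense-labelled library 2 nearly met, and the groups did not overlap. HLA-B had a log2 fold change of -0.47 (SE 0.14, 95% interval -0.77 to -0.16, adjusted p = 0.0174, edgeR). It no longer passed when 1 of 3 libraries was omitted (vector control 2 or 4, or antisense-labelled 4), where it stood at -0.43, -0.37 and -0.37.

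HLA-E, a non-classical heavy chain that shows leader peptides of other class I molecules to the CD94/NKG2 receptors of natural killer cells, was at 96.7, 84.7 and 99.4 CPM in the vector control and 83.6, 74.7 and 69.2 CPM in the other group. Control library 3 lay just above antisense-labelled library 2. HLA-E had a log2 fold change of -0.30 (SE 0.094, 95% interval -0.52 to -0.091, adjusted p = 0.0224, edgeR). It no longer passed when 1 of 4 libraries was omitted (vector control 2 or 4, antisense-labelled 3 or 4), where the value nearest 0 was -0.24.

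HLA-F, a non-classical heavy chain found largely inside cells, was close to the limit of detection. The vector control gave 6, 3 and 6 counts and the antisense-labelled libraries 12, 18 and 27, or 0.104, 0.0735 and 0.140 CPM against 0.291, 0.403 and 0.480 CPM. All 3 antisense-labelled libraries were above all 3 control libraries, with a log2 fold change of 1.87 (SE 0.45, 95% interval 0.86 to 2.88, edgeR). HLA-F passed the filter on low counts only through the antisense-labelled libraries, so no p-value is given. Even the highest of these libraries lay far below HLA-B, the next heavy chain by level.

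Heavy chain genes are near-identical over long stretches and the reference holds alleles that this line need not carry, so reads could be lost or shared out between them by the authors' counting, and each single value is uncertain. The sum of the 4 heavy chain genes does not depend on how reads were shared among these 4. It was 274, 232 and 286 CPM in the vector control and 220, 177 and 182 CPM in the antisense-labelled libraries, with all 3 of the latter lower. In a fit with the sum in place of the 4 genes, the log2 fold change of the sum was -0.45 (SE 0.11, 95% interval -0.70 to -0.20, adjusted p = 0.00707, edgeR), and the call held in 6 of 6 fits that left out 1 library. HLA-H, a class I pseudogene that can take up reads of its relatives, was at 20.9 to 30.4 CPM against 23.9 to 28.5 CPM, with overlapping groups (-0.011, SE 0.14, adjusted p = 0.948, edgeR). HLA-G, the class I gene of the placenta, had 0 counts in every library.

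B2M, the invariant light chain that every classical and most non-classical class I molecules need to fold, rose. It was at 203, 182 and 160 CPM in the vector control and at 401, 392 and 399 CPM in the antisense-labelled libraries. The antisense-labelled libraries lay within a few percent of each other, and each was well above every control library. B2M had a log2 fold change of 1.13 (SE 0.090, 95% interval 0.92 to 1.33, adjusted p = 1.24e-05, edgeR), and between 1.04 and 1.21 in the fits that left out 1 library.

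Light chain and summed heavy chains moved apart within the same libraries. The ratio of B2M counts to summed heavy chain counts was 0.741, 0.786 and 0.557 in the vector control and 1.82, 2.21 and 2.19 in the antisense-labelled libraries. Counts of different genes also reflect their lengths, so only the difference between groups is read from this ratio. It was 1.59 on the log2 scale, with no overlap. In an exact two-sided permutation test of 3 against 3 libraries, p was 0.1, the smallest this design allows, and 0.125 after Benjamini-Hochberg adjustment over the 5 ratios computed.

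TAP1 and TAP2, the subunits of the ATP-driven peptide transporter, were lower by small amounts. TAP1 was at 12.8, 11.5 and 14.4 CPM in the vector control and 10.5, 11.0 and 8.67 CPM in the antisense-labelled libraries, with a narrow gap between control library 3 and antisense-labelled library 3. Its log2 fold change was -0.36 (SE 0.12, 95% interval -0.64 to -0.079, adjusted p = 0.0345, edgeR), and it no longer passed when 1 of 4 libraries was omitted (vector control 2 or 4, antisense-labelled 2 or 4), where the value nearest 0 was -0.26. TAP2 was at 30.4, 30.9 and 29.6 CPM against 27.7, 27.4 and 26.6 CPM. The groups were tight and apart, but TAP2 did not pass (-0.16, SE 0.070, 95% interval -0.31 to 0.0022, adjusted p = 0.0869, edgeR). The ratio of TAP1 to TAP2 counts was 0.371 to 0.486 against 0.327 to 0.402, with overlapping groups (log2 difference -0.20, exact two-sided permutation p = 0.3, adjusted 0.3).

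TAPBP encodes tapasin, which bridges empty class I molecules to the transporter and edits their peptides. It was at 70.8, 79.8 and 75.4 CPM in the vector control and 65.9, 69.5 and 61.4 CPM in the antisense-labelled libraries, again with no overlap. The log2 fold change of -0.20 (SE 0.078, 95% interval -0.38 to -0.022) did not pass with edgeR (adjusted p = 0.0561) and passed with DESeq2 (adjusted p = 0.0495).

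NLRC5, the transactivator of class I genes, had the largest fold change of the members and, per kilobase, the lowest level. The vector control gave 3, 4 and 6 counts and the antisense-labelled libraries 81, 64 and 96, or 0.0521, 0.0980 and 0.140 CPM against 1.97, 1.43 and 1.71 CPM. Every antisense-labelled library was far above every control library. NLRC5 had a log2 fold change of 4.15 (SE 0.38, 95% interval 3.30 to 5.01, edgeR), or 17.8-fold with an interval of 9.82 to 32.1. The log2 fold change was 3.80 to 4.51 when 1 library was left out. NLRC5 passed the filter on low counts only through the antisense-labelled libraries, so no p-value is given. By the likeness of centred log2 CPM over the 6 libraries, the tested genes nearest to NLRC5 were LPAR1, ANKRD33B and FBLN2, at a root mean square distance of 0.148, 0.231 and 0.231. LPAR1 and FBLN2 also passed the filter on low counts only through the antisense-labelled libraries. All 3 genes were higher there, LPAR1 from 0.364 ± 0.137 to 4.58 ± 0.246 CPM (SD, n = 3).

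Levels can be compared between genes only per length of transcript, which was known for 8 of 9 members (not TAPBP). Per kilobase, the order in the vector control was B2M at 193 ± 23.0, HLA-C at 86.4 ± 9.37, HLA-E at 36.0 ± 3.01 and HLA-B at 24.5 ± 4.08 CPM per kilobase (SD, n = 3). TAP2 at 5.34 ± 0.118, TAP1 at 4.35 ± 0.497, HLA-F at 0.0825 ± 0.0258 and NLRC5 at 0.0144 ± 0.00652 CPM per kilobase followed (SD, n = 3). Each of these neighbours in the order was separated over the 3 libraries. The antisense-labelled libraries had the same order, from B2M at 421 ± 5.06 to NLRC5 at 0.253 ± 0.0399 CPM per kilobase (SD, n = 3). There HLA-F, at 0.227 to 0.374 CPM per kilobase, overlapped with NLRC5, at 0.213 to 0.293.

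Of 12 tested genes of other class I heavy chains and class I-like molecules, 3 rose, 5 fell and 4 did not pass, with a median of -0.16. For this and every other list, the background is all tested genes, of which 27.7% were higher and 27.3% lower. No list was tested against that background. The stress-induced ligands of the NKG2D receptor split. MICA was at 52.5, 48.9 and 56.3 CPM in the vector control and 27.7, 23.7 and 23.0 CPM in the antisense-labelled libraries (log2 fold change -1.08, SE 0.096), and MICB was at 23.7, 27.4 and 22.8 against 13.9, 12.1 and 12.2 CPM (-0.95, SE 0.10). Both groups of libraries were far apart for each gene, although MICA and MICB are close relatives whose reads could be shared. ULBP3, another NKG2D ligand, rose by 0.47 (SE 0.099), while ULBP2 did not pass (-0.10, SE 0.16). HFE, the class I-like regulator of iron uptake, which binds beta-2-microglobulin, rose by 0.86 (SE 0.099). FCGRT, the heavy chain of the neonatal Fc receptor and also a partner of beta-2-microglobulin, did not pass (0.14, SE 0.084). MR1, which presents vitamin B metabolites to mucosal-associated T cells, fell by 0.66 (SE 0.17), PROCR by 0.78 and the pseudogene HLA-L by 1.38. AZGP1, a secreted class I-like protein that needs no light chain, went from 27 counts over the vector control libraries to 1726 over the other group (5.97, SE 0.28), and passed the filter on low counts only through the latter.

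**Figure D2:**
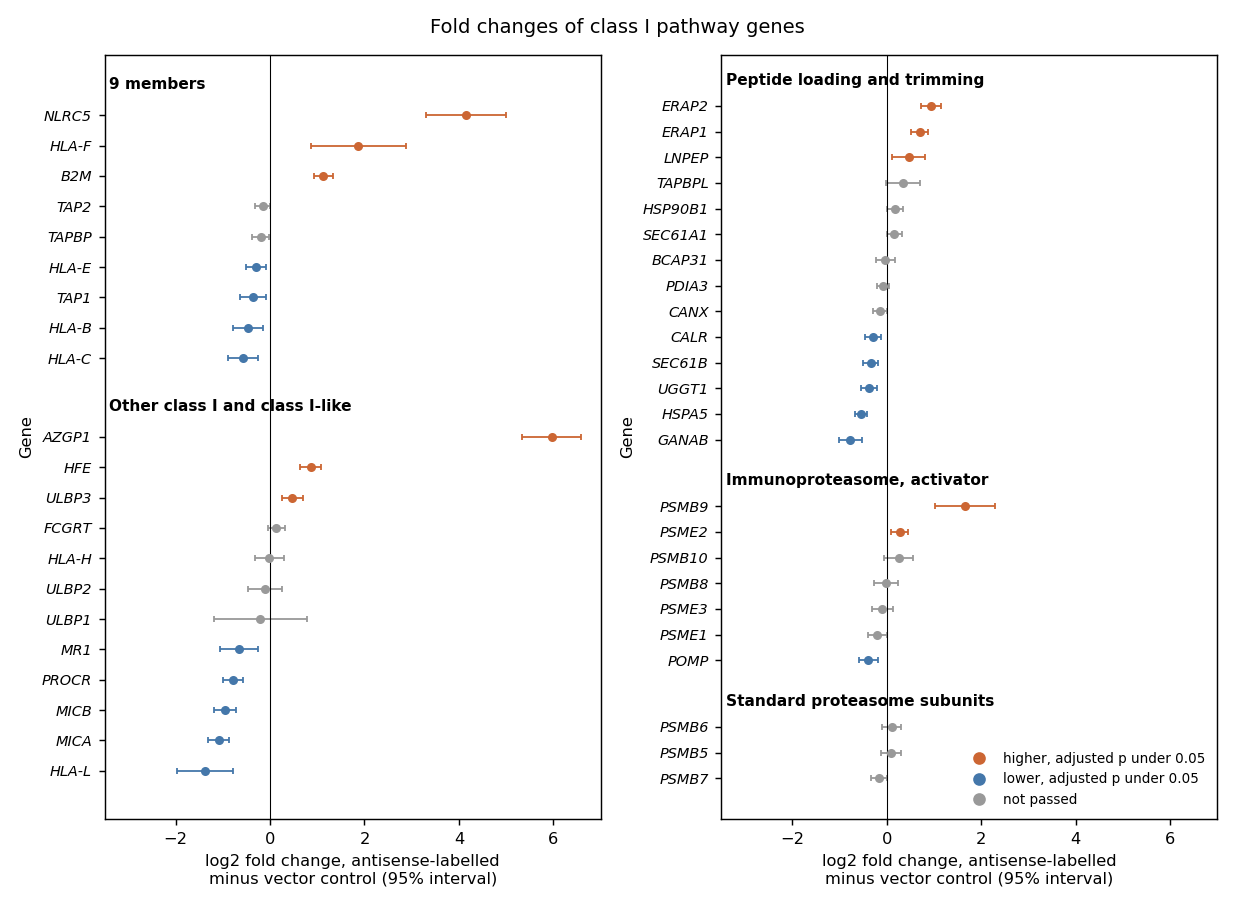
log2 fold change of each tested gene, antisense-labelled minus vector control, with its 95% interval (edgeR), for the members, class I-like, loading and trimming, immunoproteasome and standard proteasome genes, coloured by call. NLRC5 lies at 4.15 and AZGP1 at 5.97, and the peptide trimming genes ERAP1 and ERAP2 and the immunoproteasome gene PSMB9 lie to the right of 0 among the loading and proteasome genes.

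Of 14 tested genes of loading and trimming in the endoplasmic reticulum, 3 rose, 5 fell and 6 did not pass, with a median of -0.054. The 3 that rose were aminopeptidase genes. ERAP1, which trims peptides to class I length, was at 90.9, 106 and 88.5 CPM in the vector control and 151, 153 and 158 CPM in the antisense-labelled libraries (log2 fold change 0.69, SE 0.083). ERAP2, its partner with another sequence preference, was at 24.6, 26.2 and 21.2 against 44.4, 45.6 and 47.3 CPM (0.93, SE 0.092). LNPEP, the related endosomal aminopeptidase used in cross-presentation, rose by 0.47 (SE 0.15), though its groups overlapped. The 5 that fell were chaperones, glycan processing enzymes and a channel subunit: GANAB (-0.77), HSPA5 (-0.55), UGGT1 (-0.38), SEC61B (-0.34) and CALR (-0.30). CALR, calreticulin of the loading complex, went from 1145, 997 and 1137 CPM to 940, 894 and 830 CPM. Its partner PDIA3 (-0.074, SE 0.055), the lectin chaperone gene CANX (-0.15, SE 0.066) and the tapasin relative TAPBPL (0.34, SE 0.16) did not pass.

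ERAP1, ERAP2 and LNPEP are neighbours on chromosome 5, and the genes around them were also higher. Among the 40 tested genes nearest to ERAP1 in the RefSeq gene order, 25 were higher and 2 lower, with a median log2 fold change of 0.49, and 24 of the 40 lay below ERAP1 itself. For ERAP2, 32 of 40 neighbours lay below it. The part of this shared shift in the rise of the 3 genes was not tested.

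The immunoproteasome replaces the catalytic subunits of the standard proteasome and favours peptides that class I molecules bind. Of 7 tested genes of the immunoproteasome and its activator, 2 rose (PSMB9 and PSME2), 1 fell (POMP) and 4 did not pass. PSMB9 rose from 0.608, 0.392 and 0.396 CPM to 1.72, 1.34 and 1.40 CPM, with no overlap (log2 fold change 1.65, SE 0.28, adjusted p = 0.00116, edgeR). PSMB8 did not pass, at 10.7, 8.92 and 11.5 against 10.9, 10.3 and 9.83 CPM (-0.0082, SE 0.11; its sign changed when scaled by library size alone), and PSMB10 overlapped at 27.5, 20.2 and 27.8 against 32.2, 31.7 and 26.2 CPM (0.25, SE 0.14, adjusted p = 0.150). PSME2, a subunit of the PA28 activator, rose by 0.28 (SE 0.080; not called without antisense-labelled library 2, at 0.26), and its partner PSME1 did not pass (-0.20, SE 0.088). POMP, the proteasome assembly chaperone, fell by 0.39 (SE 0.088).

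The standard subunits PSMB5, PSMB6 and PSMB7 did not pass (0.086, 0.10 and -0.16), with 0 of 3 called by edgeR. Within a library, PSMB9 counts were 0.00398, 0.00294 and 0.00245 of those of its counterpart PSMB6 in the vector control and 0.00998, 0.00831 and 0.00911 in the antisense-labelled libraries. The ratio of PSMB10 to PSMB7 also lay higher in all 3 antisense-labelled libraries (log2 difference 0.42), and that of PSMB8 to PSMB5 lower in all 3 (-0.089). For each of these ratios the exact two-sided permutation p was 0.1, the smallest possible, and 0.125 adjusted. PSMB9 and TAP1 are next to each other in the gene order and are known to be transcribed in opposite directions from a shared promoter region. In these libraries PSMB9 rose and TAP1 fell.

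**Figure D3:**
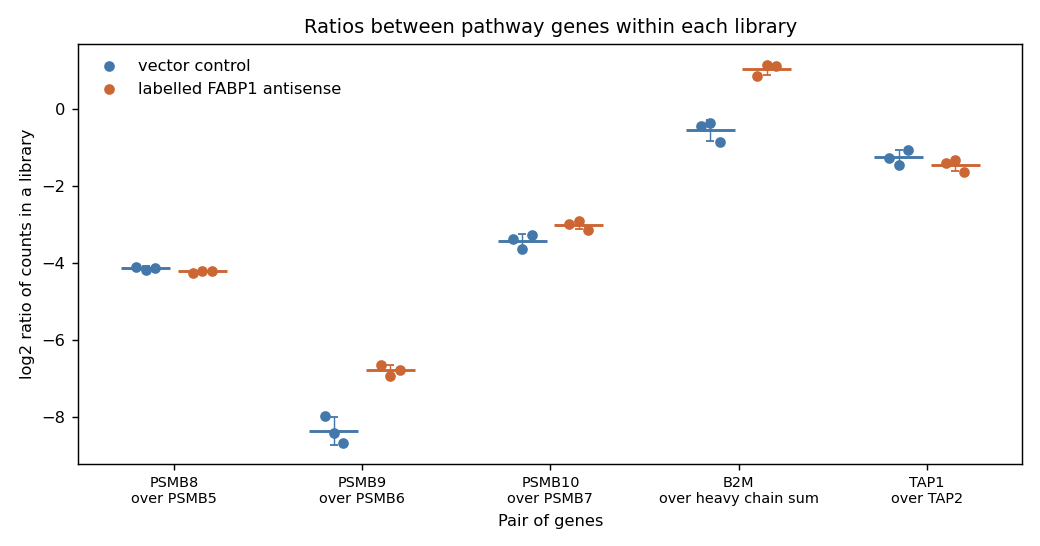
log2 ratio of the counts of paired genes within each library (points), with the mean and SD of the 3 libraries of each group. The ratio of B2M to summed heavy chains (log2 difference 1.59) and of PSMB9 to PSMB6 (1.57) lie clearly higher in the antisense-labelled libraries, and TAP1 over TAP2 overlaps.

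Cytosolic peptidases and related genes moved both ways, as did all tested genes (27.7% higher and 27.3% lower). Of 9 tested, 3 rose, 4 fell and 2 did not pass, with a median of -0.30. UBE2L6, the conjugating enzyme for ISG15, rose by 1.13 (SE 0.14) and ISG15, the interferon-induced ubiquitin-like modifier, fell by 0.94 (SE 0.19) from 6.60, 6.27 and 7.92 to 4.61, 3.53 and 2.74 CPM. Bleomycin hydrolase, BLMH, which trims peptide precursors in the cytosol, fell by 1.11 (SE 0.074). The prolyl peptidase gene PREP rose by 0.64 (SE 0.067).

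The class I promoter module is bound by the RFX complex, CREB and ATF factors and the NF-Y complex. Of 22 tested genes for these factors, IRF and NF-kappaB genes and chromatin regulators, 6 rose, 5 fell (3 without antisense-labelled library 4) and 11 did not pass, with a median of 0.016. Of the RFX complex, RFXAP fell from 11.4, 10.3 and 9.46 to 5.22, 5.01 and 5.81 CPM (log2 fold change -0.96, SE 0.11), RFX5 fell by 0.35 (SE 0.070), and RFXANK did not pass (0.10, SE 0.091). Of NF-Y, NFYB rose by 0.57 (SE 0.10), NFYA by 0.25 (SE 0.078), and NFYC fell by 0.55 (SE 0.14). ATF1 rose by 0.61 (SE 0.10), and KAT2B, an acetyltransferase used by class II and class I transactivators, rose by 1.08 (SE 0.13). IRF1, the interferon-induced activator of the IRF element, did not pass (16.7, 16.0 and 16.7 against 14.4, 14.9 and 14.1 CPM, adjusted p = 0.0583, edgeR), while IRF2 rose by 0.53 (SE 0.095) and IRF8 by 0.84 (SE 0.064). RELA, a subunit of NF-kappaB, fell by 0.28 (SE 0.081). EZH2, the Polycomb methyltransferase that silences class I genes in some tumours, did not pass (0.0070, SE 0.064).

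Interferon signalling genes moved both ways, as did all tested genes (27.7% higher and 27.3% lower), and several interferon-gamma response genes were higher. Of 16 tested receptor and signalling genes, 4 rose, 6 fell and 6 did not pass, with a median of -0.044. The number that rose was 1 without vector control library 2 and 2 without vector control library 4 or any 1 antisense-labelled library. The kinase gene JAK1 fell by 0.48 (SE 0.077), IRF9 by 0.59 (SE 0.12) and SOCS3 by 0.55 (SE 0.15), and the receptor gene IFNAR2 rose by 0.53 (SE 0.075). Of 13 tested interferon-gamma response genes outside antigen presentation, 6 rose, 3 fell and 4 did not pass, with a median of 0.21. The guanylate binding protein gene GBP1 rose from 0.903, 0.490 and 0.699 to 3.69, 4.16 and 3.54 CPM (2.42, SE 0.24) and GBP2 from 0.643, 0.196 and 0.792 to 3.28, 3.60 and 3.66 CPM (2.67, SE 0.37), the latter tested only through the antisense-labelled libraries. BATF2 rose by 1.90 (SE 0.18) and TRIM21 by 1.09 (SE 0.11). The chemokine genes CXCL10 and CXCL11 and GBP4 had 0 counts in all libraries, CXCL9 had 8 and 11 counts over the groups, and IDO1 had 2 and 0.

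Several class II genes, which professional antigen presenting cells express, had no counts. CIITA, the class II counterpart of NLRC5, had 0 counts in every library, and HLA-DRA had 5 counts over the vector control libraries and 0 over the others. Of 16 genes of the list, 7 had 0 counts in all libraries and 6 were tested, of which 1 rose, 2 fell and 3 did not pass. CD74, the invariant chain, was well expressed at 267, 249 and 290 against 246, 239 and 222 CPM and did not pass (-0.19, SE 0.077, adjusted p = 0.0670, edgeR). The protease gene CTSS rose from 0.920, 0.784 and 1.05 to 5.56, 4.96 and 4.82 CPM (2.47, SE 0.17), and the thiol reductase gene IFI30 and the protease gene LGMN fell by 0.58 and 0.56.

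Markers of other cell types gave the following values. Of 14 leukocyte markers, 5 had 0 counts in all libraries, and 6 were tested, of which 2 rose (CSF1R and CD68), 1 fell (CD14) and 3 did not pass. Their summed level, nearly all of it LCP1, was 461.9 to 472.7 CPM in the vector control and 497.6 to 541.5 CPM in the other group. Of 11 fibroblast and stromal markers, COL1A2, DCN and THY1 had 0 counts in all libraries, and the sum was 39.6 to 42.6 against 32.3 to 36.3 CPM. Of the 6 tested, 3 rose (LUM, VIM and COL3A1), 2 fell (PDGFRA and PDGFRB) and 1 did not pass. Of 5 endothelial markers, CDH5, KDR and TEK had 0 counts in all libraries, and the sum was 0.833 to 1.42 against 2.39 to 2.67 CPM, with both tested markers (PECAM1 and VWF) higher. Of the 12 intestinal epithelial markers, 7 rose, 2 fell and 3 did not pass, and of 12 housekeeping genes, 3 rose, 2 fell and 7 did not pass. CSF1R, LUM and VWF passed the filter on low counts only through the antisense-labelled libraries, and PDGFRA only through the vector control. The part of these markers in the results was not tested.

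The members on chromosome 6 lie in the MHC, where most called genes were lower. From HLA-F to TAPBP there were 117 tested genes in the RefSeq order, of which 55 were lower, 12 higher and 50 did not pass, with a median log2 fold change of -0.29. The median was -0.36 over the 44 genes from HLA-F to MICB (the class I region), -0.25 over the 54 genes of the class III region and -0.32 over the 19 genes of the class II region up to TAPBP. Without all genes of the lists used here, 48 of 102 were lower and 10 higher, with a median of -0.29. On the rest of chromosome 6, 192 of 646 tested genes were lower and 136 higher, with a median of -0.059.

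**Figure D4:**
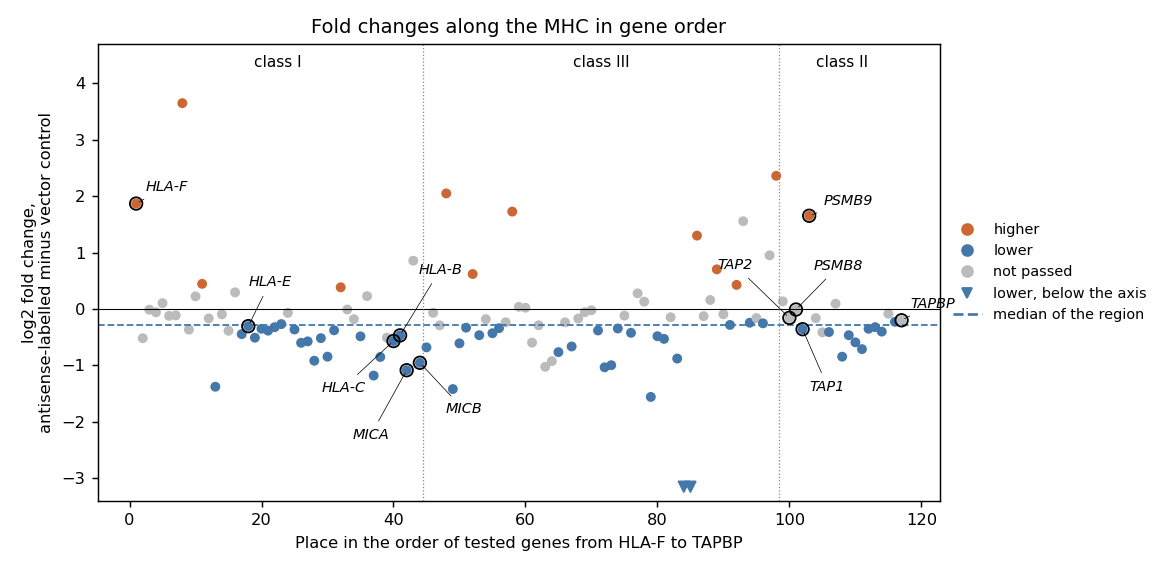
log2 fold change of the 117 tested genes from HLA-F to TAPBP in gene order, coloured by call, with the 7 members found there, PSMB8, PSMB9, MICA and MICB circled and the region's median of -0.29 dashed; C4A and C4B (-8.47 and -9.56) lie below the axis and are a near-identical pair whose reads could be shared. HLA-B, HLA-C, HLA-E, TAP1, TAP2 and TAPBP sit near the dashed line, MICA and MICB below it, and HLA-F and PSMB9 above it.

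The fold changes of the chromosome 6 members were set beside those of their nearest neighbours. HLA-B, at -0.47, had 40 tested neighbours with a median of -0.37, of which 16 were lower than HLA-B. HLA-C, at -0.57, had neighbours with a median of -0.36, of which 11 of 40 were lower. HLA-E, at -0.30, had neighbours with a median of -0.33, of which 21 of 40 were lower. The neighbours of TAP1 had a median of -0.23 (14 of 40 lower than TAP1), those of TAP2 -0.25 (25 of 40 lower than TAP2) and those of TAPBP -0.35 (25 of 40 lower than TAPBP). MICA differed more from its surroundings, with 2 of 40 neighbours lower, and MICB with 4 of 40. These windows overlap and hold other members, so they are a description, with no test.

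The members that rose lay above most of their neighbours. B2M, on chromosome 15 at 1.13, had 40 neighbours with a median of 0.27, of which 15 were higher and 2 lower than in the vector control, and 34 had a smaller fold change than B2M. NLRC5, on chromosome 16 at 4.15, lay above all 40 of its neighbours (median 0.21). HLA-F lay above 39 of 40 (median -0.14), and PSMB9 above 39 of 40 (median -0.25), with PSMB8 at -0.0082 above 30 of 40. The part of these regional shifts in the members' values was not tested.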

How the data were processed

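PolyA RNA of 6 Caco-2 samples was sequenced, 3 per group. TRIzol extraction and the TruSeq Stranded mRNA guide were used, per the labels' protocols. GRCh37 is the build in the submitters' processing notes, which list StringTie 1.3.4d, HISAT2 2.1.0, Trimmomatic 0.38, Bowtie2 2.3.4.1 and bcl2fastq without their roles. The strand setting and the handling of reads that align to several genes are not given in the sources used here. The authors deposited read counts per gene, not normalized, and these counts were used as deposited. The other 12 per-library columns were not used. Columns were matched to groups by header name, since header numbers (2, 3 and 4) differ from label numbers (1, 2 and 3).

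Genes were filtered with filterByExpr (14640 kept), scaled by TMM and tested with edgeR 4.0.16 (quasi-likelihood) in R 4.3.3, with Benjamini-Hochberg adjustment over all tested genes at 0.05. Every adjusted p in the text is from this fit unless DESeq2 1.42.0 is named. Errors are the fold change over the root of F. Transcript lengths are medians of GENCODE 29 transcripts matched by RefSeq accession. Neighbours are the 20 tested genes on either side in the RefSeq order (GRCh38.p14, used for order only). Ratios used counts plus 0.5 and exact permutation with scipy 1.17.1. The test was checked on simulated data with changes placed in genes drawn from all tested genes. It recovered 55.2% of 1.5-fold, 73.1% of 2-fold and 100% of 4-fold changes, with 21 false calls among 14440 unchanged genes. Small changes can therefore fail to pass. Within a group, pairs of libraries differed beyond sampling noise, with 14.3 to 41.2 chi-square units per degree of freedom.

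Members, lists and rules were chosen with earlier results of these data known. Named were the members, fixed key genes and up to 4 genes per list with the largest called changes, non-overlapping groups and a mean log2 CPM of at least 1. Other genes, mostly of groups of 5 or fewer and those beside a member, were named after their values were seen. Alternatives covered scaling, filters, DESeq2, a block, left-out libraries, window width and ratio offset. Some genes of the lists are counted but not reported here by name.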

Additional observations from a re-analysis of the deposited data

How the results depend on the processing

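Of 640 results under other settings, 618 were classed as unchanged, and of 648 under left-out libraries, 603 were. For a single gene or the heavy chain sum, unchanged meant the same direction and side of the threshold. For a number of called genes it meant staying within a fixed fold limit, and for a ratio keeping its sign. A median of neighbours was unchanged if it moved by less than its SD over the antisense-labelled libraries. DESeq2's Wald test called 8103 genes against 8054 by edgeR. The header numbers gave no sign of pairing (correlations of same-numbered deviations 0.0264, -0.0775 and -0.0937), though these values cannot show that the libraries are unpaired. A block on the header numbers left 6661 genes called. With the replicate block, HLA-B and HLA-C stayed called lower, so 2 members were lower, and the class I transcription genes gave 3 lower, the interferon signalling genes 2 higher, the endothelial markers 1 higher and the intestinal epithelial markers 1 lower. With no filter, 5 class I-like genes were higher, and at 1 CPM or more in 3 libraries, 1 endothelial marker was. Leaving out 1 library gave 1 to 4 members lower, 1 to 2 immunoproteasome genes higher and 1 to 2 lower, 0 to 1 standard subunits lower, 3 to 5 class I transcription genes lower, 1 to 3 interferon signalling genes higher, 1 to 2 endothelial markers higher, 1 to 2 intestinal epithelial markers lower and 1 to 3 housekeeping genes lower. Genes near 0 changed sign: PSMB8 was 0.0042 by library size alone, 0.0019 at 1 CPM or more and -0.11 to 0.065 with 1 library left out, and EZH2 was -0.0021 with no filter and -0.024 to 0.032 with 1 library left out. With 10 tested genes on either side, the neighbours' median was -0.48 for HLA-C, -0.021 for HLA-F, -0.16 for TAP1 and TAP2 and 0.29 for NLRC5. With 50 it was -0.27 for HLA-E, -0.33 for TAP2, -0.28 for TAPBP and 0.20 for NLRC5. The cause of these changes was not tested. Depth limits HLA-F and NLRC5, with 15 and 13 counts over the vector control, and HLA-F was not tested at 1 CPM or more.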

Other observations

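The MHC also held genes that rose against the lower level of the region, named after their values were seen. TRIM31, a ubiquitin ligase of the class I region, went from 0.261 ± 0.120 to 3.41 ± 0.517 CPM (SD, n = 3), a log2 fold change of 3.65. LTB, which encodes lymphotoxin beta, went from 0.301 ± 0.0875 to 1.27 ± 0.124 CPM (2.05, adjusted p = 0.000522, edgeR), and NOTCH4, a Notch receptor gene, from 0.131 ± 0.0852 to 0.653 ± 0.122 CPM (2.36; SD, n = 3). All 3 antisense-labelled libraries were above all 3 control libraries for each of these genes. TRIM31 and NOTCH4 passed the filter on low counts only through the antisense-labelled libraries, so their difference was a condition of being tested and no p-value is given.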
